A study of Mus musculus with 15 samples.

Results

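The genes described here are the proteasome genes of mouse cortex, taken as the 49 of the 23235 genes in an RNA-seq table whose symbol begins with Psma, Psmb, Psmc, Psmd, Psme, Psmf or Psmg followed by a digit. One of them, Psmc3ip, matches by name only and encodes a factor of meiotic recombination. The proteasome is the protease that degrades proteins tagged with ubiquitin. Its barrel, the 20S core particle, is closed by outer rings of alpha subunits (Psma genes) and holds the proteolytic sites in inner rings of beta subunits (Psmb genes). A 19S regulatory particle caps the barrel: its base holds a ring of ATPases (Psmc genes), and its lid (Psmd genes) removes ubiquitin. Neurons depend on this protease to turn over synaptic proteins and to clear damaged ones. The 20S and 19S subunits are needed in fixed numbers in each particle. Transcript levels need not keep these proportions, so the sums set side by side below describe RNA and do not measure particles.

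RNA was from cortex of adult C57BL/6J wild-type (WT) mice and of adult Snord116del (+/-) mice of the strain B6(Cg)-Snord116tm1.1Uta/J. The paper states that the RNA-seq mice were males and that WT and Snord116del were littermates, from heterozygous fathers and C57BL/6 WT mothers. Snord116del mice lack the Snord116 cluster of small nucleolar RNA genes and its host RNA 116HG on the paternal allele. The locus is imprinted, and the authors saw no nuclear cloud of 116HG RNA in Snord116del brain. Mice were killed at Zeitgeber time (Zt) +6 h, in the light, or Zt +16 h, in the dark. There were 3 WT and 2 Snord116del mice at Zt +6, and 2 and 2 at Zt +16. A second set of data holds DNA peaks from whole brain, obtained by chromatin isolation by RNA purification (ChIRP) with oligos against 116HG or with non-specific control (NSC) oligos. The table gives 1 FPKM value (fragments scaled to transcript length and library size) for each group and no value per mouse, so the spread between mice cannot be seen and no difference below has a replicate check or a p-value. In its place a size rule was used. A gene was called higher or lower where its FPKM + 1 was 1.5 or more times that of the other group and the higher group reached 1 FPKM. The rule was run over the 10297 genes whose mean over groups reached 1 FPKM. Of the 49 genes, 44 passed this filter on low values, and the 5 others are Psma8, Psmb8, Psmb9, Psmb11 and Psmg1.

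Facts that touch every comparison come first. Snord116 itself was listed at 0 FPKM in all 4 groups, so it does not check the labels. Over the 10297 genes the median level was 5.63 FPKM in Snord116del against 3.17 in WT at Zt +6, and 4.00 against 2.90 at Zt +16. In the values that follow, the first of each pair is WT and the second Snord116del unless a sentence says otherwise. GEO's labels name an earlier version of the table for both Snord116del mice and 1 WT mouse at Zt +6, and a later one for the remaining 6. The labels do not say whether these versions stand for library batches, and at Zt +6 they run almost parallel to genotype. Markers of neurons were present, as the label of cortex requires, with summed levels of 921 and 1648 FPKM at Zt +6 and of 705 and 969 at Zt +16. Astrocyte markers summed to 33.3 and 98.5 FPKM at Zt +6 and to 14.8 and 19.1 at Zt +16, with 5 of 5 called higher in Snord116del at Zt +6. Endothelial markers summed to 4.56 and 17.1 FPKM at Zt +6 and to 2.00 and 2.75 at Zt +16, with 4 of 4 called higher at Zt +6. Of the oligodendrocyte and microglial markers, 3 of 5 and 4 of 6 were called higher at Zt +6, where 49.3% of all 10297 genes were. No listed marker of these 5 cell types was at 0. Their part in the differences below was not tested, and fewer cells of a type cannot be told apart from less RNA per cell in bulk tissue.

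Core particle transcripts lay lower against WT than those of the regulatory particle in the Snord116del cortex at Zt +6, in the light. There 11 of the 14 constitutive 20S genes (Psma1 to Psma7 and Psmb1 to Psmb7) were below WT, with a median log2 change of -0.53, while 12 of the 17 genes of the 19S base and lid were above it, with a median of 0.15. Of all 10297 genes 77.6% were above WT at that time, with a median of 0.57, so the 19S genes did not stand above other genes. When the groups were set to a common median FPKM, a scaling that shifts both particles alike, the medians were -1.31 and -0.61. The 20S genes have shorter transcripts than the 19S genes (median of the longest transcript 1174 against 1955 bases), and the change at Zt +6 followed length, as described further on. After the running median of genes of like length was subtracted, the medians were -0.33 for the 20S and 0.00 for the 19S genes, a smaller gap, and with the median coding transcript as length, a choice made after seeing the data, they were -0.58 and 0.03. At Zt +16, in the dark, all 44 genes were above WT, as were 96.8% of all genes, and on the common median 29 of the 44 were. The summed level of the 14 constitutive 20S genes was 437 and 274 FPKM at Zt +6, and 610 and 935 at Zt +16. The summed level of the 17 genes of the 19S base and lid was 259 and 276 FPKM at Zt +6, and 319 and 454 at Zt +16. The 20S sum was thus 1.69 times the 19S sum in WT and 0.992 times it in Snord116del cortex at Zt +6, while at Zt +16 it was 1.91 and 2.06 times the 19S sum. As a share of the summed FPKM of all genes, the 49 genes made up 0.505% and 0.395% at Zt +6 and 0.502% and 0.475% at Zt +16, with WT first.

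**Figure D1:**
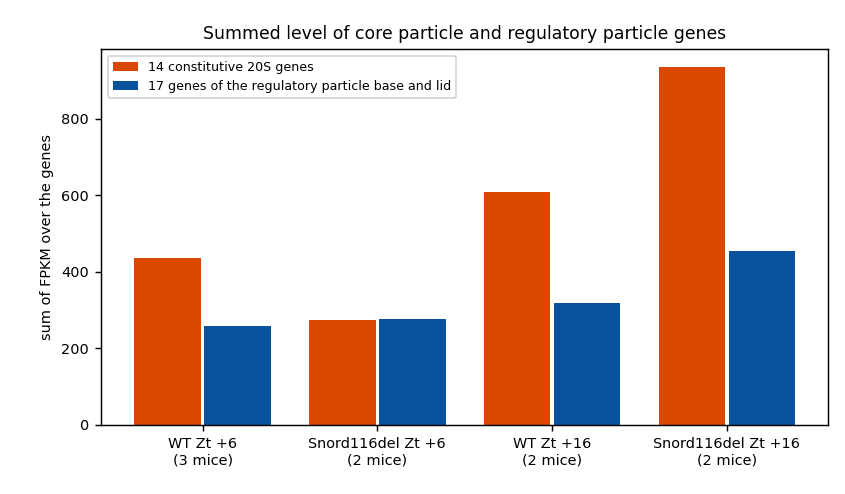
Summed FPKM (y axis, from 0) of the 14 constitutive 20S genes (orange) and of the 17 genes of the 19S base and lid (blue) in the 4 groups, with no error bars because the table holds 1 value per group. The 2 bars are nearly of equal height in Snord116del at Zt +6 (274 and 276), and the 20S bar is the higher one in the other 3 groups.

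By the size rule, 9 of the 44 genes were higher and 12 lower in Snord116del than in WT at Zt +6, where 49.3% of all 10297 genes were higher and 7.62% lower. The median log2 change was -0.20 over the 44 genes and 0.57 over all genes. On the common median, which put the median of all genes at -0.06, 3 of the 44 were higher (Psmd3, Psmd5 and Psme4) and 28 lower, against 15.0% and 24.4% of all genes. At Zt +16, 16 of the 44 were higher and 0 lower, where 19.0% of all genes were higher and 0.204% lower. The median log2 change was 0.52 over the 44 and 0.35 over all genes, and on the common median it was 0.12 over the 44 and 0.01 over all, with 0 of the 44 called.

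In the order of the 4 groups, Snord116del at Zt +16 stood highest for 36 of the 44 genes, against 41.1% of all genes. Snord116del at Zt +6 stood lowest for 25 of them, against 21.3% of all genes, and highest for 8, against 57.7% of all genes. Those 8 were Psma5, Psmd1, Psmd3, Psmd5, Psmd7, Psmd11, Psme3 and Psme4, a set with 1 core subunit, 4 subunits of the 19S particle, 1 of its assembly chaperones and 2 activators.

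**Figure D2:**
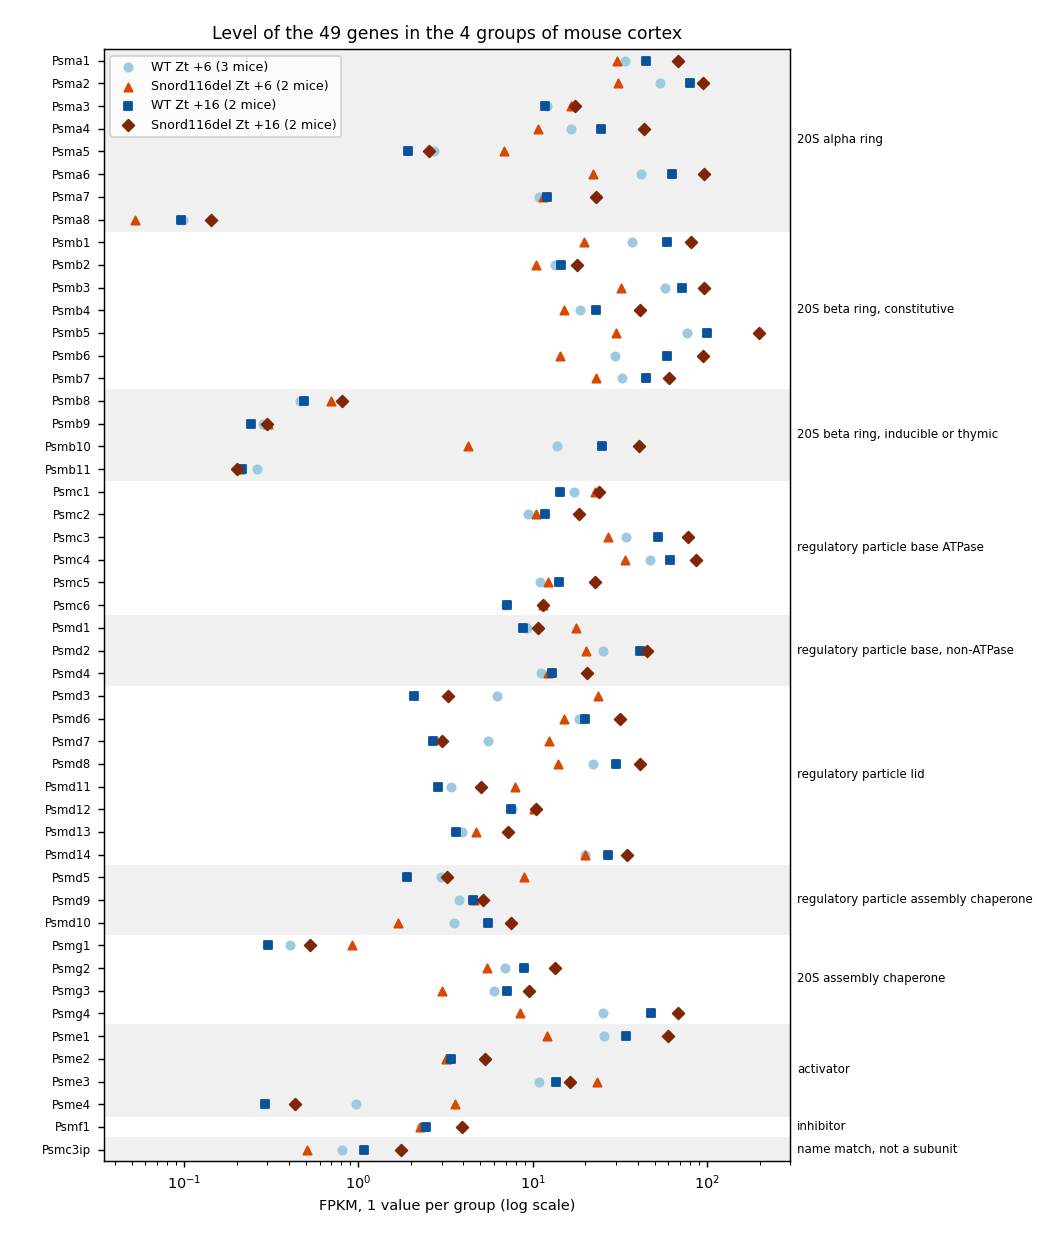
FPKM (x axis, log scale) of each of the 49 genes, grouped by role, in WT (circles and squares) and Snord116del (triangles and diamonds) at Zt +6 and Zt +16. The dark diamonds of Snord116del at Zt +16 lie furthest right for 36 of the 44 genes that passed the filter, and the triangles of Snord116del at Zt +6 lie furthest left for 25.

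The beta ring carries the proteolytic sites. All 7 of its constitutive genes were below WT at Zt +6 (4 called lower, median log2 change -0.82). At Zt +16 all 7 were above WT (3 called higher, median 0.45). Of all genes 7.62% were called lower at Zt +6 and 19.0% higher at Zt +16. On the common median all 7 stayed below WT at Zt +6 (median -1.63), and 3 lay above and 4 below it at Zt +16 (median -0.01). After the running median of genes of like length was subtracted, 6 were negative at Zt +6 (median -0.57) and Psmb2 was positive (0.12). Psmb1, at -0.57, then fell short of the size rule. With the median coding transcript as length, all 7 were negative (median -0.83). Psmb5, the chymotrypsin-like subunit and the target of proteasome inhibitors used against myeloma, stood at 76.5 and 30.2 FPKM at Zt +6 and at 101 and 199 at Zt +16. It was the most abundant of the 49 genes in WT at both times and in Snord116del at Zt +16, and its log2 change was -1.31 at Zt +6 and 0.98 at Zt +16. Psmb6, the caspase-like subunit, stood at 29.8 and 14.4 FPKM at Zt +6 and at 59.0 and 95.2 at Zt +16. Psmb7, the trypsin-like subunit, stood at 32.7 and 23.1 FPKM at Zt +6 and at 44.4 and 60.3 at Zt +16, and was called at neither time. The 3 catalytic genes thus lay in the same order of groups, from Snord116del at Zt +6 up to Snord116del at Zt +16, with the widest range in Psmb6 and Psmb5, at 6.62-fold and 6.59-fold between the 2 Snord116del groups.

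The structural beta genes followed the same order. Psmb1 was at 37.2 and 19.8 FPKM at Zt +6 and at 58.6 and 80.4 at Zt +16. Psmb3 was at 57.4 and 32.0 FPKM at Zt +6 and at 71.6 and 96.3 at Zt +16. For Psmb4 the values were 18.6 and 15.1 FPKM at Zt +6 and 41.0 in Snord116del against 23.1 in WT at Zt +16. Psmb1 and Psmb3 were called lower at Zt +6 and Psmb4 was called higher at Zt +16. Psmb2, the least abundant gene of this ring, was called at neither time.

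The inducible beta subunits replace the constitutive ones in the immunoproteasome, which immune cells and interferon-treated cells build. Psmb10, the inducible counterpart of Psmb7, stood at 13.7 and 4.24 FPKM at Zt +6 and at 25.0 and 40.5 at Zt +16. Its log2 change of -1.49 at Zt +6 was the lowest of the 44 genes. Psmb8, the counterpart of Psmb5, was at 0.463 and 0.696 FPKM at Zt +6 and at 0.487 and 0.809 at Zt +16, and Psmb9, the counterpart of Psmb6, was at 0.286, 0.302, 0.242 and 0.300 in the same order. Psmb10 thus lay within the range of the 14 constitutive 20S genes in WT at Zt +6 (2.70 to 76.5 FPKM) and below it in Snord116del (6.85 to 32.0 FPKM), while the other 2 inducible genes stayed under 1 FPKM in every group. Of 14 genes of interferon signalling and class I antigen presentation, 6 passed the filter. Among them 2 were higher at Zt +6, against 49.3% of all genes, and 2 were higher at Zt +16, against 19.0%. None of the 6 was lower at either time, against 7.62% and 0.204% of all genes. B2m, the light chain of class I molecules, was the 1 called at both times, with 26.9 and 57.5 FPKM at Zt +6 and 19.7 and 40.1 at Zt +16. Psmb11, the thymic subunit, and Psma8, the testis-specific alpha subunit, stayed between 0.0525 and 0.263 FPKM.

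Alpha subunits form the gate of the barrel, and they split more than the beta genes did. Psma2 was at 54.0 and 30.7 FPKM at Zt +6 and at 79.7 and 94.5 at Zt +16. Psma6 was at 41.7 and 22.0 FPKM at Zt +6 and at 63.1 and 95.9 at Zt +16. Both were called lower at Zt +6, and Psma6 was also called higher at Zt +16. Psma4 was at 16.6 and 10.8 FPKM at Zt +6 and at 24.6 and 43.4 at Zt +16. Psma7 was at 10.9 and 11.4 FPKM at Zt +6 and at 12.1 and 23.1 at Zt +16. These last 2 were called at Zt +16 only. Psma5 ran the other way at Zt +6, from 2.70 FPKM in WT up to 6.85, and stood at 1.92 and 2.55 at Zt +16. It was the least abundant of the 14 constitutive 20S genes in every group. The levels of the 14 genes, from Psma5 to the highest, spanned 28.4-fold and 4.67-fold at Zt +6, and 52.5-fold and 78.0-fold at Zt +16. The narrow span of the Snord116del group at Zt +6 arose from both ends, since the low gene was higher there and the high ones lower.

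**Figure D3:**
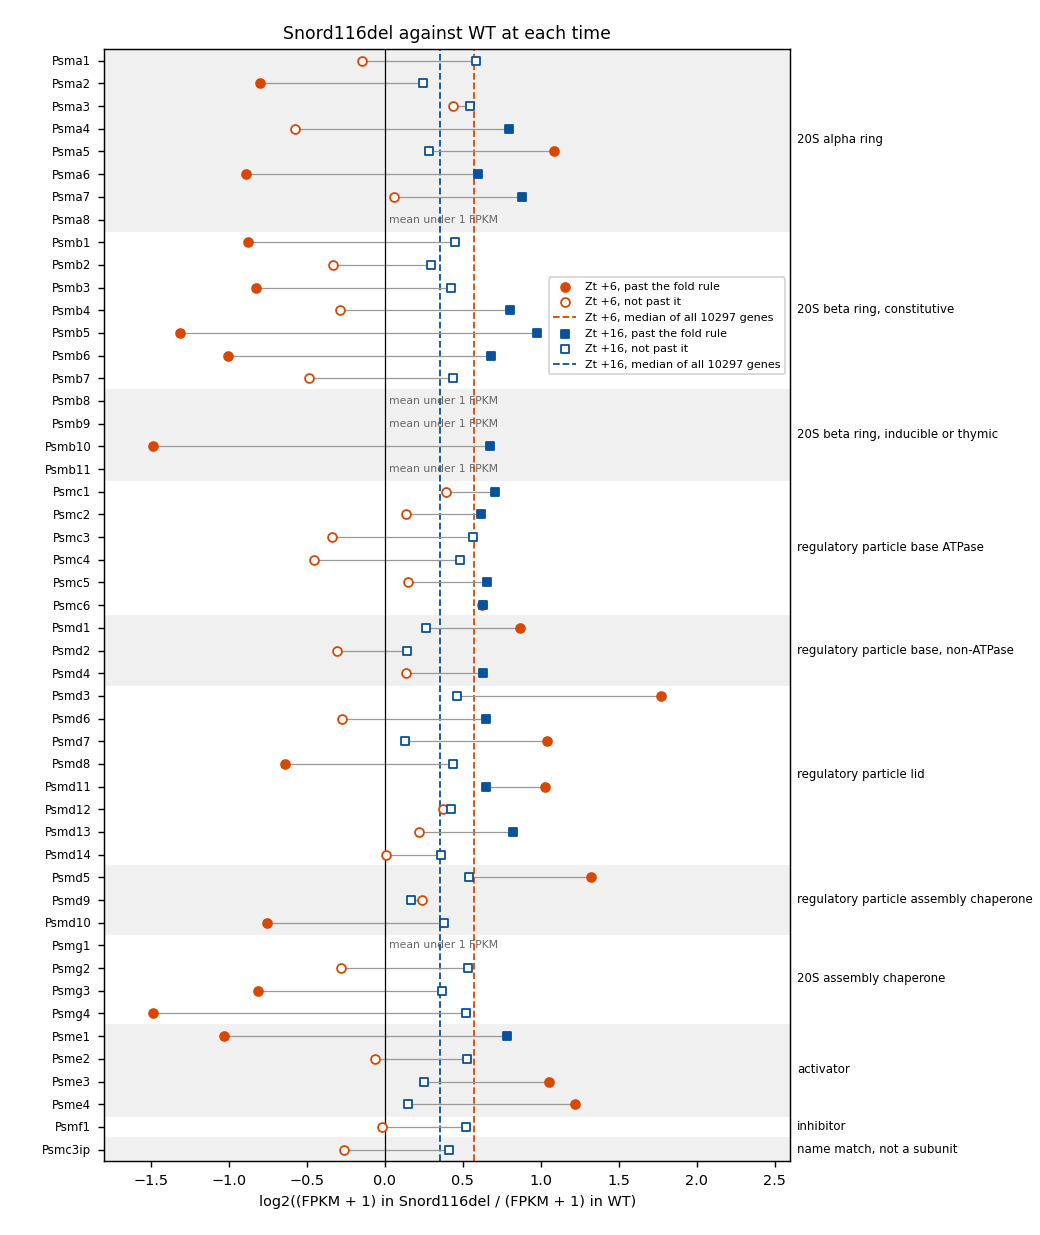
Log2 change of FPKM + 1 in Snord116del against WT (x axis) at Zt +6 (orange circles) and Zt +16 (blue squares) for each gene, filled where the size rule was met, with dashed lines at the medians of all 10297 genes (0.57 and 0.35). The circles run from -1.49 (Psmb10) to 1.77 (Psmd3), while the squares all lie between 0.13 and 0.98 (with the groups set to a common median, 15 of the 44 would lie below 0).

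The ATPases of the 19S base unfold substrates and open the gate, and their log2 changes ran from -0.45 to 0.62 at Zt +6. Psmc6 alone of the 6 was called there, at 7.06 and 11.4 FPKM. Its levels at Zt +16 were 7.09 and 11.5, so the gap between genotypes was alike at both times. On the common median its log2 change at Zt +6 was -0.13 in place of 0.62. At Zt +16, 4 of the 6 ATPases were called higher, against 19.0% of all genes. None of these calls was left on the common median or after the length trend was subtracted. Psmc1 was at 14.4 and 24.1 FPKM there, after 17.2 and 22.8 at Zt +6. Psmc2 was at 11.7 and 18.4, after 9.39 and 10.4, and Psmc5 was at 14.1 and 22.8, after 11.0 and 12.3. Psmc3 and Psmc4, the most abundant ATPase genes, ran below WT at Zt +6 (34.2 against 26.9 FPKM, and 46.9 against 34.0) and above it at Zt +16, but did not meet the rule at either time.

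Among the other base subunits, the ubiquitin receptor Psmd4 was at 11.1 and 12.3 FPKM at Zt +6 and at 12.9 and 20.5 at Zt +16, where it was called higher. The scaffold subunit Psmd1 was at 9.30 and 17.7 FPKM at Zt +6, where it was called higher, and at 8.79 and 10.7 at Zt +16. Psmd2, the scaffold subunit that binds ubiquitin-like domains, was called in neither genotype comparison.

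The lid held the largest rise of the 44 genes. Psmd3, a structural lid subunit, stood at 6.25 and 23.7 FPKM at Zt +6, a log2 change of 1.77, and at 2.08 and 3.25 at Zt +16. Psmd7, the partner of the deubiquitinase, stood at 5.57 and 12.5 FPKM at Zt +6 and at 2.69 and 3.03 at Zt +16. Psmd11, a subunit whose level sets proteasome activity in stem cells, stood at 3.41 and 7.96 FPKM at Zt +6 and at 2.84 and 5.02 at Zt +16, and was called higher at both times. Neither call of Psmd11 was left on the common median or after the trend with longest transcript was subtracted. Psmd3, Psmd7 and Psmd11 were called higher at Zt +6, as were 49.3% of all genes. Psmd8, by contrast, was called lower there, at 22.2 and 13.9 FPKM, with 30.2 and 41.2 at Zt +16. The deubiquitinase itself, Psmd14, was at 19.8 and 19.9 FPKM at Zt +6 and at 27.0 and 34.8 at Zt +16, and was called at neither time. Psmd6 was at 18.4 and 15.1 FPKM at Zt +6 and at 20.0 and 31.8 at Zt +16. Psmd13 was at 3.91 and 4.71 FPKM at Zt +6 and at 3.64 and 7.22 at Zt +16. Psmd6 and Psmd13 were called higher at Zt +16, and Psmd12, the last of the 8 lid genes, was called at neither time. Psmb5 had the lowest log2 change of the constitutive core genes at Zt +6 (-1.31), and Psmd3 had the highest of the 44 genes. The ratio of Psmb5 to Psmd3 thus compares extremes and does not stand for core and lid. It was 12.3 and 1.28 at Zt +6 and 48.3 and 61.2 at Zt +16. The ratio of summed core to regulatory particle genes was 1.69 and 0.992 at Zt +6 and 1.91 and 2.06 at Zt +16.

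Assembly chaperones build the particles and leave them when they are finished. Of those of the 19S base, Psmd5 stood at 2.96 and 8.88 FPKM at Zt +6, called higher, and at 1.91 and 3.23 at Zt +16. Psmd10, also known as the oncoprotein gankyrin, stood at 3.54 and 1.69 FPKM at Zt +6, called lower, and at 5.53 and 7.49 at Zt +16. These 2 base chaperones moved in opposite directions in the same comparison. Of those of the 20S core, Psmg4 stood at 25.3 and 8.41 FPKM at Zt +6 and at 47.5 and 68.4 at Zt +16, and Psmg3 at 6.03 and 3.00 and at 7.14 and 9.48. Both were called lower at Zt +6 and not called at Zt +16. The proteins of these 2 genes pair with each other, as do those of Psmg1 and Psmg2, of which Psmg2 was not called and Psmg1 was under the filter, at 0.305 to 0.916 FPKM.

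Activators other than the 19S particle open the barrel without ubiquitin. Psme1 and Psme2 encode the alpha and beta chains of 1 ring. Psme1 stood at 25.5 and 12.0 FPKM at Zt +6 and at 34.2 and 59.5 at Zt +16, called lower and then higher. Psme2 stood at 3.37 and 3.17 FPKM at Zt +6 and at 3.38 and 5.31 at Zt +16, and was called at neither time, so the 2 chains of this ring did not move together at Zt +6. Psme3, which forms a nuclear ring of its own, was at 10.8 and 23.4 FPKM at Zt +6, called higher, and at 13.6 and 16.4 at Zt +16. Psme4, a nuclear activator that acts on acetylated histones, was at 0.968 and 3.58 FPKM at Zt +6, called higher, and at 0.292 and 0.432 at Zt +16. Psmf1, an inhibitor of the core in vitro, was at 2.28 and 2.24 FPKM at Zt +6 and at 2.43 and 3.92 at Zt +16 and was not called. Psmc3ip, which is no subunit, was not called either.

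A total of 5 of the 44 genes were called lower at Zt +6 and higher at Zt +16, against 4.55% of all genes: Psma6, Psmb5, Psmb6, Psmb10 and Psme1. Their log2 change at Zt +16 exceeded that at Zt +6 by 1.49 (Psma6) to 2.29 (Psmb5). Only Psmc6 and Psmd11 were called higher at both times, against 2.99% of all genes. Neither was called at either time on the common median or after the trend with longest transcript was subtracted. With the median coding transcript as length, Psmd11 was called higher at Zt +6. On the common median the 5 genes lower and then higher stayed lower at Zt +6. On that scale they lay 0.14 (Psma6) to 0.52 (Psmb5) above WT at Zt +16, under the size rule. None of the 5 calls at Zt +16 was left after the length trend was subtracted or under a 2-fold rule. The comparisons at the 2 times share no mice.

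Time of day was compared within each genotype, from Zt +6 to Zt +16. In WT, 6 of the 44 genes were higher at Zt +16 (Psmb1, Psmb6, Psmb10, Psmc3, Psmd2 and Psmg4) and 2 lower (Psmd3 and Psmd7), against 5.71% and 10.3% of all genes. The median log2 change in WT was 0.29 over the 44 and -0.04 over all genes. In Snord116del, 30 were higher at Zt +16 and 6 lower, against 25.0% and 39.1% of all genes, and the median was 0.91 against -0.24. After the length trend was subtracted, 3 genes were higher in WT (median 0.12), against 3.29% of all genes, and 17 in Snord116del (median 0.27), against 25.0%. Before this subtraction the 6 lower ones in Snord116del were Psma5, Psmd1, Psmd3, Psmd5, Psmd7 and Psme4, and after it Psmd1 and Psme4 were no longer called. Psmb2 and Psme2, called higher before it, were called lower after it, each at -0.65. The number lower thus stayed at 6, where 2535 genes in all were lower. Psmd3 and Psmd7 were thus lower in the dark in both genotypes, and Psmb10 showed the largest rise in Snord116del, from 4.24 to 40.5 FPKM. Choroid plexus markers, led by Ttr, summed to 202 and 184 FPKM at Zt +6 and to 25.6 and 30.3 at Zt +16, and their part in the time comparisons was not tested. The labels name the earlier table version for both Snord116del mice at Zt +6 and the later one for both at Zt +16. Time and table version thus cannot be told apart in Snord116del. In WT the earlier version is named for 1 of the 3 mice at Zt +6 and for 0 of the 2 at Zt +16. The time comparisons share their groups with the genotype comparisons and add no separate evidence for them.

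Genes that work with the proteasome were read from a list of 30 ubiquitin receptors, deubiquitinases, shuttles, assembly and transcription factors and ubiquitin genes, of which 25 passed the filter. Of these, 11 were higher and 4 lower at Zt +6, against 49.3% and 7.62% of all genes, and 6 were higher and 0 lower at Zt +16, against 19.0% and 0.204%. Pomp, the chaperone that matures the core particle, stood at 56.7 and 26.8 FPKM at Zt +6 and at 95.2 and 160 at Zt +16. Adrm1, a ubiquitin receptor of the base, stood at 28.3 and 17.8 FPKM at Zt +6 and at 41.2 and 72.5 at Zt +16. Both were called lower and then higher, as Psmb5 and Psmb6 were. Other gene families of short transcripts lay on the same sides of WT. Cytosolic ribosomal protein genes (79 tested) had a median log2 change of -0.41 at Zt +6 and 0.76 at Zt +16, and genes of the respiratory chain and ATP synthase (75 tested) one of -0.81 and 0.72. On the common median these values were -1.24 and 0.29 for the former and -1.63 and 0.25 for the latter.

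Transcript length moved with the change at Zt +6. The longest annotated transcript had a median of 1516.5 bases over the 44 genes and 3085 over all genes, and Spearman's rho between it and the log2 change was 0.63 over the 44 genes and 0.63 over 10165 genes with a length. These are descriptions across genes of the same libraries. Below 1500 bases, the median log2 change was -0.49 for 19 proteasome genes and -0.26 for all genes. Between 1500 and 2500 bases it was 0.06 for 13 proteasome genes and 0.27 for all, and above 2500 bases it was 0.65 for 12 and 0.83 for all. The proteasome genes lay below all genes in each length class, by less than they did when lengths were pooled. After the running median of genes of like length was subtracted, 5 of the 44 were higher at Zt +6, against 12.7% of all genes, a share near the background. All 5 were among the 9 called before (Psma5, Psmd3, Psmd5, Psmd7 and Psme3). The number lower was 12, against 13.6% of all genes, of which 9 were among the 12 called before (Psma2, Psmb3, Psmb5, Psmb6, Psmb10, Psmd8, Psmd10, Psme1 and Psmg4). At Zt +16 none of the 16 calls was left, where 0.974% of all genes were higher. The difference from genes of like length was 1.24 for Psmd3 and 1.22 for Psma5 at Zt +6, and -1.36 for Psmb10, -1.35 for Psme1 and -0.87 for Psmb5, on the log2 scale. Psme4, with a transcript of 6491 bases, lay 0.08 above genes of its length. What sets the relation with length was not tested.

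**Figure D4:**
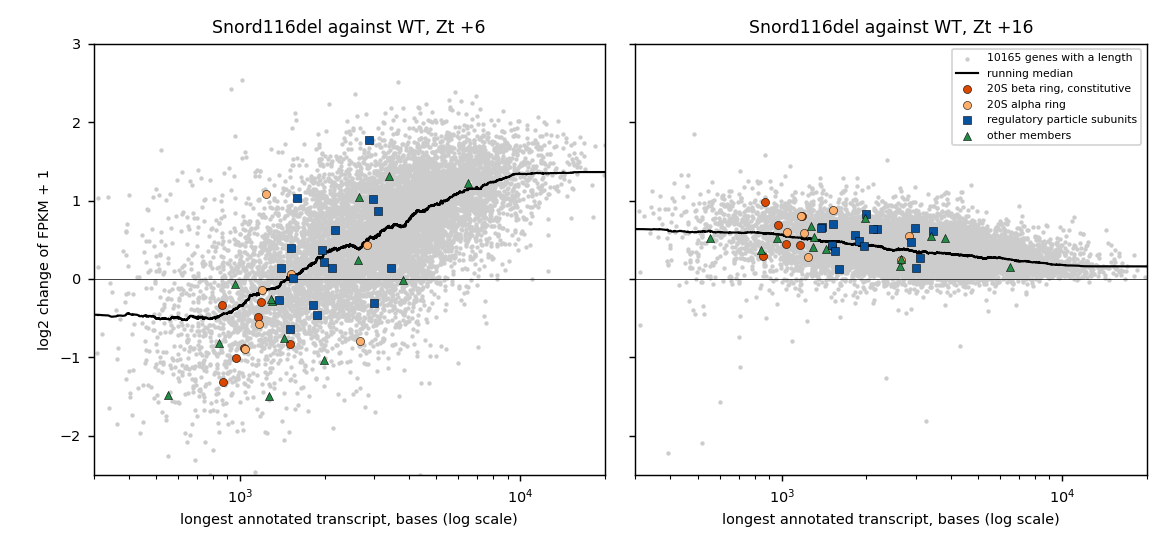
Log2 change in Snord116del against WT (y axis) against the longest annotated transcript in bases (x axis, log scale) at Zt +6 and Zt +16, with 10165 genes in grey, their running median in black and the 44 proteasome genes by class in colour. At Zt +6 the black line climbs with length (rho 0.63) and most beta ring genes lie low at its left end, whereas at Zt +16 it falls slightly (rho -0.38).

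Because Psmb5, Psmb6 and Psmb10 were the beta genes lowest against WT at Zt +6, and Psme4 and Psmd5 were among those highest, the 250 bases before their start sites are shown, from RefSeq on the build GRCm38.p6. Such promoters were at hand for 41 of the 49 genes. Capitals mark the antioxidant response core TGACNNNGC, which NFE2L1 and NFE2L2 bind and through which NFE2L1 is known to raise proteasome genes when the proteasome is inhibited.

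Psmb5 (chr14:54617996-54618245, GRCm38.p6, minus strand): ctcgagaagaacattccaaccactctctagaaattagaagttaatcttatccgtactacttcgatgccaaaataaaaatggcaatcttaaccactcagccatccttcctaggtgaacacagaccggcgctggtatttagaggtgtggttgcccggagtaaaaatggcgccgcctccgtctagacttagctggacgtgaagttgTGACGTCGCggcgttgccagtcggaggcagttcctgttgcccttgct
Psmb6 (chr11:70525107-70525356, GRCm38.p6, plus strand): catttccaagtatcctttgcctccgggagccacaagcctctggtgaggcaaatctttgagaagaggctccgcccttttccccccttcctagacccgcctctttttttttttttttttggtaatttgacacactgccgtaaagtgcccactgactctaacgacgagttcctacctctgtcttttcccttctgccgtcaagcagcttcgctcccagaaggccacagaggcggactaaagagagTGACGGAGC
Psmb10 (chr8:105938393-105938642, GRCm38.p6, minus strand): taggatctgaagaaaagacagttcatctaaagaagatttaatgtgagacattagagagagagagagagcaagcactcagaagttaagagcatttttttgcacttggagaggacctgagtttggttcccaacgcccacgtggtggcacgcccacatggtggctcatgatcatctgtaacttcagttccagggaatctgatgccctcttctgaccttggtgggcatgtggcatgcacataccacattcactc
Psme4 (chr11:30771525-30771774, GRCm38.p6, plus strand): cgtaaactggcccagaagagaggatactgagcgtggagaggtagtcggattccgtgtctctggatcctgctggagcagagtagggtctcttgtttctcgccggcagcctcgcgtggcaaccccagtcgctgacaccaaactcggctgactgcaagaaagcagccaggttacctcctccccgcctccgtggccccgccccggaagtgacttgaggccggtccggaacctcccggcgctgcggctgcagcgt
Psmd5 (chr2:34870963-34871212, GRCm38.p6, minus strand): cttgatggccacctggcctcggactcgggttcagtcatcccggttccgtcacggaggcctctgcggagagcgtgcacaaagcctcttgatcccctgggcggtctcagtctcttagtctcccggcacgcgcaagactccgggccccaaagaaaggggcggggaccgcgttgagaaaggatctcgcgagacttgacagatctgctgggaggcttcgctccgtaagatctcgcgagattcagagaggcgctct

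Psmb5 held the core at positions -47 to -39 and Psmb6 at -9 to -1 from the start site, both on the strand of the gene. With both strands searched, the core was found in 5 of the 41 promoters (12.2%), against 10.1% of 27025 promoters of the same length. It was present in 2 of the 11 promoters of genes lower at Zt +6 and in 1 of the 7 of genes higher. The CCAAT box, on either strand, was found in 15 of the 41 (36.6%), against 34.5% of all, and in none of the 5 printed. The transcripts of the 2 factors were at 21.7 and 28.0 FPKM (Nfe2l1) and 0.718 and 2.07 FPKM (Nfe2l2) at Zt +6.

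ChIRP peaks address whether 116HG was recovered with DNA at these genes. The authors' lists hold peaks with a fold over input above 20 and a false discovery rate under 5%, on mm9, called in each library separately. In WT brain, 116HG replicate 1 had a peak in or within 2 kb of 45 of the 49 genes, against 93.6% of the tested genes, and replicate 2 of 8, against 17.5%. WT NSC had a peak at 1 gene (Psmd7), 116HG oligos on Snord116del brain at 1 (Psmd8) and NSC oligos on Snord116del brain at 3 (Psma7, Psmd7 and Psmd8). The shares of the tested genes were 2.53%, 2.86% and 10.6%. These 3 control lists are short throughout, with 3648, 1280 and 3418 peaks in the same order. The lists of WT 116HG replicates 1 and 2 hold 78033 and 11145. A replicate 1 peak within 10 kb of a replicate 2 peak was counted as replicated. Such peaks lay at 9 genes (Psma2, Psmb6, Psmc2, Psmd7, Psmd12, Psmd14, Psmf1, Psmg2 and Psmg4), against 18.0% of the tested genes. Of these 9, 1 was higher, 3 were lower and 5 were neither at Zt +6, where 49.3% of all genes were higher and 7.62% lower. Of the 44 genes, 9 were higher and 12 lower. The median log2 change at Zt +6 was -0.02 for the 9 genes and -0.26 for the 35 tested genes without such a peak. Whether peaks and expression are linked was not tested.

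The 2 WT libraries differed in where their peaks lay. Of the 253 replicate 1 peaks at these genes, 56.1% had their middle in a coding exon, 22.5% in an untranslated exon, 7.11% in an intron and 13.4% outside the gene. Of the 8 replicate 2 peaks, 2 lay in introns and 6 outside. Of 22 replicated peaks, 1 shared bases with a replicate 2 peak, at Psmd12 on chromosome 11, beyond the end of the gene at 107365676. At Psmb6 (chromosome 11, 70338869 to 70341360) all 4 replicated peaks lay in coding exons, and the replicate 2 peak lay before the start (position -1722). The sequences of these peaks are shown for Psmb6, Psmd12 and Psmd7, with capitals for the bases that a pair of overlapping peaks shared.

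Psmb6 coding exon, WT 116HG replicate 1 (chr11:70340045-70340160, mm9, plus strand): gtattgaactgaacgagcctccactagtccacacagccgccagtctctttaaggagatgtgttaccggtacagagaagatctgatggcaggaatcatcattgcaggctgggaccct
Upstream of Psmb6, WT 116HG replicate 2 (chr11:70337117-70337178, mm9, plus strand): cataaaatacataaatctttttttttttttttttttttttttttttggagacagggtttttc
Beyond Psmd12, WT 116HG replicate 1 (chr11:107365902-107365964, mm9, plus strand): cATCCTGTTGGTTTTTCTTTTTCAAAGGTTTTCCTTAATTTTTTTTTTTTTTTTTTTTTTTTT
Beyond Psmd12, WT 116HG replicate 2 (chr11:107365903-107365986, mm9, plus strand): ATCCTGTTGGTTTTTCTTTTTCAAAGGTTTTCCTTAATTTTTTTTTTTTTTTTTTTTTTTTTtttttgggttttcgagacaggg
Upstream of Psmd7, WT 116HG replicate 2 (chr8:110112956-110113022, mm9, plus strand): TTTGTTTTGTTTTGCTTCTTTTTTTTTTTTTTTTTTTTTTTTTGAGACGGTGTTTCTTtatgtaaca
Upstream of Psmd7, WT NSC (chr8:110112920-110113013, mm9, plus strand): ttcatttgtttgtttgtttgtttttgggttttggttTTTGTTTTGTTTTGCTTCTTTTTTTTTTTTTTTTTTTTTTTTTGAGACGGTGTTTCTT

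The overlapping peaks at Psmd12 shared 62 bases that end in a run of T, and those upstream of Psmd7 shared 58 bases around such a run, there between a 116HG library and the control library from WT brain. A run of at least 15 A or T was present in 7 of the 8 replicate 2 peaks, with a longest run of 14 bases in the remaining one, at Psmg4. It was present in 9 of the 253 replicate 1 peaks (3.56%) and in the single WT NSC peak. The median GC content was 29.6% in replicate 2 and 48.8% in replicate 1.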

How the data were processed

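RNA-seq of 9 mouse cortices and ChIRP-seq of brain were analysed. The authors aligned RNA-seq reads with TopHat2 (2.0.5) to mm9 and deposited 1 Cuffdiff (2.0.2) FPKM per gene and group; the submitters' processing notes give these versions, with Bowtie2 2.0.0 and MACS 1.4.2 for the peaks. The deposited table also holds the authors' own log2 fold changes and q-values, which were not used. The deposited fold over input of a peak is a ratio and was read only as listed, and the replicate 2 list gives positions, without scores. Read depth per library is not in the files used here, and the deposited FPKM values carry no error.

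All 49 genes matching the symbol rule were accounted for. Changes are log2 of (FPKM + 1) ratios. The rule for naming was fixed: values in all groups for genes past the 1.5-fold rule between genotypes, catalytic subunits and Psmd4, Psmd14, Psme1, Psme2, Psme4 and Psmf1, peaks at genes with a replicated peak, and, of other lists, genes past the rule at both times; genes named beyond it were chosen after their values were seen. Of the genes that the rule names, 1 from the other lists is not reported here. The members and lists were chosen with earlier results of these data known. Genes were placed by symbol on the GENCODE genes of mm9 (NCBIM37). Exons of 12 of the 49 genes overlap another annotated gene (Psmb5 with Mir686, Psme1 with Fam158a, Psmd3 with Gm12356), and whether counting used strand is not given in the sources used here. Steps were tested on simulated data. Python 3.11.15, numpy 2.4.6, pandas 2.3.3 and matplotlib 3.10.9 were used.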

Additional observations from a re-analysis of the deposited data

Results flagged for a closer look

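The genotype difference turned from lower at Zt +6 to higher at Zt +16 for 5 proteasome genes, each by the 1.5-fold rule, against 4.55% of all genes. None of the calls at Zt +16 was left on the common median, after the length trend was removed or under a 2-fold rule. The log2 change at Zt +16 minus that at Zt +6 was 2.29 for Psmb5, 2.16 for Psmb10, 1.81 for Psme1, 1.69 for Psmb6 and 1.49 for Psma6. With 1 value per group, the difference between the times was not tested.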

How the results depend on the processing

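No paired analysis was possible because the table holds group values and no value per mouse. With the 4 groups set to a common median, the median log2 change of the 44 genes was -0.86 at Zt +6 (3 higher, 28 lower), 0.12 at Zt +16 (0 higher), 0.42 with time in WT (10 higher) and 1.34 with time in Snord116del, and the change of Psmc6 at Zt +6 reversed to -0.13. After the trend with longest transcript was removed, 5 genes were higher at Zt +6. At Zt +16 the median was 0.057 with 0 higher. Time in WT gave 0.12 with 3 higher, and time in Snord116del 0.27 with 17 higher. With the median coding transcript, an alternative chosen after seeing the data, medians were -0.34, 0.073, 0.15 and 0.61 in the same order, with 0 higher at Zt +16. Both trend removals kept Psmb5, Psmb6, Psmb10, Psme1 and Psmg4 lower and Psmd3, Psmd7, Psma5 and Psmd5 higher at Zt +6. A 2-fold rule left 7 higher and 5 lower at Zt +6, 0 higher at Zt +16, and 0 higher and 1 lower with time in WT. A pseudocount of 0.1 FPKM gave a median of 1.04 with time in Snord116del, and no filter gave -0.063 at Zt +6 and 0.78 with time in Snord116del. Genes with a replicated peak numbered 1 with direct overlap, 4 within 2 kb, and 8 and 45 when 1 WT replicate was used alone. The cause of these shifts was not tested. Group values from 2 or 3 mice, with no error and with read depth not examined, limit every value given here.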
